A study of Drosophila melanogaster with 8 samples.

Results

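The cytosolic ribosomal protein genes were examined in anti-FLAG ChIP-seq peak lists from heads of adult Drosophila melanogaster. Members were the protein-coding genes whose symbol starts with RpL or RpS followed by a digit, together with RpLP0, RpLP1 and RpLP2. They numbered 91 of 13986 protein-coding genes, 53 of the large and 38 of the small ribosomal subunit. The tagged flies, 3xFLAG-Da, carry a 3xFLAG tag on the endogenous Daughterless (Da), an E-protein of the basic helix-loop-helix family. The Control flies, white*, have no FLAG sequence, so peaks of their precipitate show what the antibody and the protocol pick up without the tag. All heads came from flies 1 to 3 days old, and the tagged heads were about equally male and female. Each genotype had 2 immunoprecipitated (IP) and 2 input libraries, and input entered only through the authors' peak calling. Whole heads mix neurons, glia, fat body, muscle and cuticle, so a peak cannot be assigned to a cell type, and peak lists hold no expression with which to check the tissue. The labels do not say whether the replicates came from separate collections of flies, so any p-value here measures the spread between these libraries only.

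The cytosolic ribosome is built from a large subunit, which joins amino acids, and a small subunit, which decodes the mRNA. Most of its proteins are needed in equal amounts with the ribosomal RNAs. In Drosophila, loss of a gene copy for many of these proteins gives Minute flies, which develop slowly and have thin, short bristles. Their promoters are known for a pyrimidine-rich initiator called TCT, and the factors DREF and M1BP act at many of them. Da binds as a dimer to E-boxes, the hexamers CANNTG, and the CAGCTG form is the one best known for E-proteins.

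Sequences at the peak summits of 8 members are shown because they hold the strongest peaks, the E-boxes, or a paralogue contrast described later. Each runs 5′ to 3′ along the strand of the gene on Release 6 (BDGP6), from 50 bases before to 50 after the summit unless cut 20 bases past the start. Capitals mark E-boxes on either strand and TATCGATA, the DNA replication-related element (DRE) that DREF recognises. RpL24-like lies at chr3R:11431667-11431767 (minus strand) and its paralogue RpL24 at chr2L:13395112-13395199 (minus). RpS14a lies at chrX:7933524-7933624 (plus), RpS21 at chr2L:2855895-2855995 (plus) and RpS6 at chrX:7901797-7901897 (minus). RpL7-like lies at chr2L:12056271-12056345 (plus), RpS26 at chr2L:18443345-18443445 (minus) and RpS28a at chr3R:30022678-30022778 (minus).
RpL24-like: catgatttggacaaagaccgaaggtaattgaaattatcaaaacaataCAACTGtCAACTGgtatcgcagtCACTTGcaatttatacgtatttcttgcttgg
RpL24: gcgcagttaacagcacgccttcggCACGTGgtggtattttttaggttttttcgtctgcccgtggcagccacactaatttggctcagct
RpS14a: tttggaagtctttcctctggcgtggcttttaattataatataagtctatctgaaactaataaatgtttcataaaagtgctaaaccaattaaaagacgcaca
RpS21: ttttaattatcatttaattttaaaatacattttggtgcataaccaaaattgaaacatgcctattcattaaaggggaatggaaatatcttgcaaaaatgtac
RpS6: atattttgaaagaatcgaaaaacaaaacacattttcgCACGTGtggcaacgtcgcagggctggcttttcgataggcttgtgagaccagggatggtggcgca
RpL7-like: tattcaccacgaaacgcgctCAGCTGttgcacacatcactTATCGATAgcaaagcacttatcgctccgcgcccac
RpS26: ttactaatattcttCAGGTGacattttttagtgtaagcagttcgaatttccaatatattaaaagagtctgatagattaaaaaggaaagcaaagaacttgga
RpS28a: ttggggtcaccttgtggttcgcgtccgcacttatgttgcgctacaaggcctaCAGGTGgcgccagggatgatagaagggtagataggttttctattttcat

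In these windows the promoters of RpS14a and RpS21, whose peaks rank among the highest of the group, hold no E-box. RpL24-like, with the highest peak, holds 2 copies of CAGTTG, read here as CAACTG on the gene's strand, and a CACTTG. RpL24 and RpS6 hold CACGTG, while RpS26 and RpS28a hold CAGGTG. RpL7-like holds CAGCTG and a DRE 14 bases apart.

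A promoter peak was a peak with its summit within 1000 bp of a start of any annotated transcript of the gene. Nearly every member had such a peak in the tagged lists. It was found at 87 of 91 members (95.6%, 95% Wilson interval 89.2 to 98.3%) in 3xFLAG-Da IP replicate 1, against 55.5% of all protein-coding genes. In 3xFLAG-Da IP replicate 2 it was found at 73 members (80.2%, 70.9 to 87.1%), against 44.3% of all genes. The Control lists held a promoter peak at 7 members (7.69%, 3.78 to 15.0%) in replicate 1, against 2.65% of all genes, and at 11 (12.1%, 6.89 to 20.4%) in replicate 2, against 4.69%. Intervals cover counting error only, and neighbouring genes can share a peak.

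All 73 members called in 3xFLAG-Da IP replicate 2 were also called in replicate 1, so 80.2% of the members were in both tagged lists, against 42.9% of all genes. A promoter peak in either Control list was found at 14 members (15.4%, 9.39 to 24.2%), against 5.45% of all genes. There were 59 members (64.8%, 54.6 to 73.9%) in both tagged lists and in neither Control list, against 38% of all genes. The mean share was 87.9% ± 10.9 (SD, n = 2) in the tagged libraries and 9.89% ± 3.11 (SD, n = 2) in the Control libraries, a difference of 78.0 percentage points. The groups did not overlap, and the exact permutation test over libraries (two-sided) gave p = 0.333, the smallest that 2 libraries against 2 can give.

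**Figure D1:**
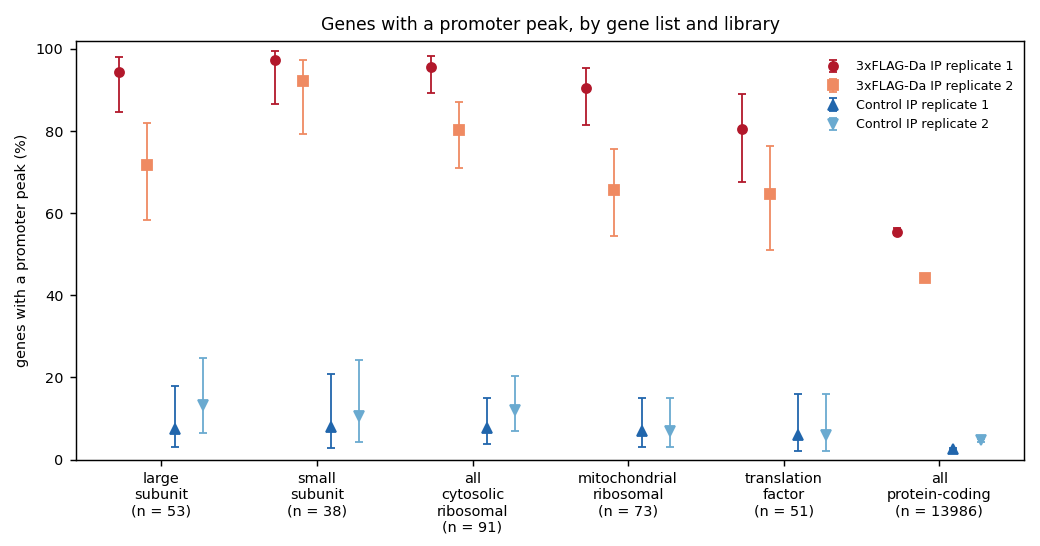
Share of genes with a promoter peak (percent, vertical axis) in each of the 4 IP libraries for 6 gene lists, with 95% Wilson intervals as bars. The cytosolic ribosomal protein genes reach 95.6% and 80.2% in the tagged libraries, against 55.5% and 44.3% of all protein-coding genes, and 7.69% and 12.1% in the Control libraries.

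The members stood above all genes in the Control lists as well. Divided by the share of all genes, the member share was 1.72 and 1.81 in the tagged libraries and 2.91 and 2.58 in the Control libraries. This ratio could not pass 1.80 and 2.26 in the tagged libraries, where so many genes were called, so its order between the groups is not comparable. As odds ratios the same counts gave 17.4 and 5.10 in the tagged and 3.07 and 2.79 in the Control libraries. The libraries also differed in depth. The tagged libraries covered each position with 9.36 and 4.17 fragments and the Control libraries with 1.92 and 1.72, as recovered from the peak values, and the lists held 10915, 8745, 453 and 707 peaks. Tagged peaks were then thinned to those that the deeper Control library would call at genome background with a probability of 0.95 or more. This left 68 members (74.7%) in replicate 1 and 58 (63.7%) in replicate 2. The local background, at member peaks in replicate 1 a median of 1.62 times the lowest, was not used, and with it fewer peaks could be kept. The same thinning left 31.7% and 27.8% of all genes, and it left 50 members (54.9%) and 23.8% of all genes in both tagged lists.

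The peaks at members were strong within their own lists. Fold is the pileup of fragments at the summit over the local background, with 1 added to both, and its percentile is the rank within the library's own list, with 100 the highest. The median member fold in 3xFLAG-Da IP replicate 1 was 6.03 (percentile 78.9), and that in replicate 2 was 7.02 (76.0). All genes with a promoter peak had medians of 5.04 (68.2) and 5.79 (64.4). Members with a percentile over 75 numbered 52 of 87 (59.8%) and 39 of 73 (53.4%), against 40.8% and 37.3% of all bound genes. In the Control lists the order was the other way, with median member percentiles of 29.1 and 22.5 against 47.1 and 50.7 for all genes with a Control promoter peak.

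RpL24-like had the strongest peak of the group. It is related to a yeast factor that accompanies the immature large subunit and leaves before translation begins. In 3xFLAG-Da IP replicate 1 its fold was 14.0 at a pileup of 301 fragments, and in replicate 2 it was 23.9 at 186. Its peak in replicate 1 covers chr3R:11431331-11432100 and has its summit 146 bp upstream of the gene, nearer to the start of the neighbour CG5276 than to its own. RpS14a followed with folds of 11.5 and 20.9. RpS14 lies near the platform of the small subunit. RpL19, which forms a bridge between the subunits, had folds of 11.4 and 15.4, and RpL41, among the smallest proteins known, had folds of 11.0 and 14.0. RpL41 had the lowest mean percentile of these, at 97.2, and RpL24-like the highest, at 99.6.

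The next 6 members by mean percentile were RpLP2, RpS21, RpL34b, RpS20, RpS16 and RpL7. RpLP2, an acidic protein of the stalk that receives elongation factors, had folds of 12.1 and 12.1. RpS21, a protein of the small subunit body, had 11.2 and 12.6. RpL34b had 8.91 and 15.8, and RpS20, a protein of the small subunit head, had 8.73 and 14.3. RpS16, whose tail reaches the tRNA in the decoding site, had 8.08 and 14.9, and RpL7, a large subunit protein, had 10.6 and 9.70. Of these 10 members, RpL19 and RpS14a also had a Control peak and the other 8 had none. The summit was nearer to another gene's start in both tagged lists at RpL24-like, RpL19, RpL41 and RpS20. At RpS14a and RpL7 it was so in replicate 1 alone, and at RpLP2, RpS21, RpL34b and RpS16 in neither.

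Members with weak peaks were fewer. RpL40, which is made as a fusion with ubiquitin and then released from it, was the weakest by mean percentile among members in both tagged lists, with folds of 2.15 and 2.99 (percentiles 2.74 and 8.20). RpS27A, the small subunit protein that is also made as a ubiquitin fusion, had 6.94 and 3.89. RpS24 followed RpL40 from below with 4.36 and 2.97, then RpS19b with 4.10 and 3.33, RpL24 with 3.66 and 4.39, and RpL13 with 3.67 and 4.63. Only 2 of 87 and 4 of 73 member peaks (2.30% and 5.48%) had a percentile of 25 or less in the tagged lists, against 10.9% and 14.8% of all bound genes. RpS6, the protein phosphorylated by S6 kinase when TOR is active, had folds of 6.95 and 8.70 and summits 413 and 516 bp upstream, both nearer to another gene's start. RpLP0, the base of the stalk, had 5.45 and 7.98, and RpLP1, its other acidic protein, had 8.09 and 3.67, which placed RpLP1 at percentiles 91.4 and 25.7.

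**Figure D2:**
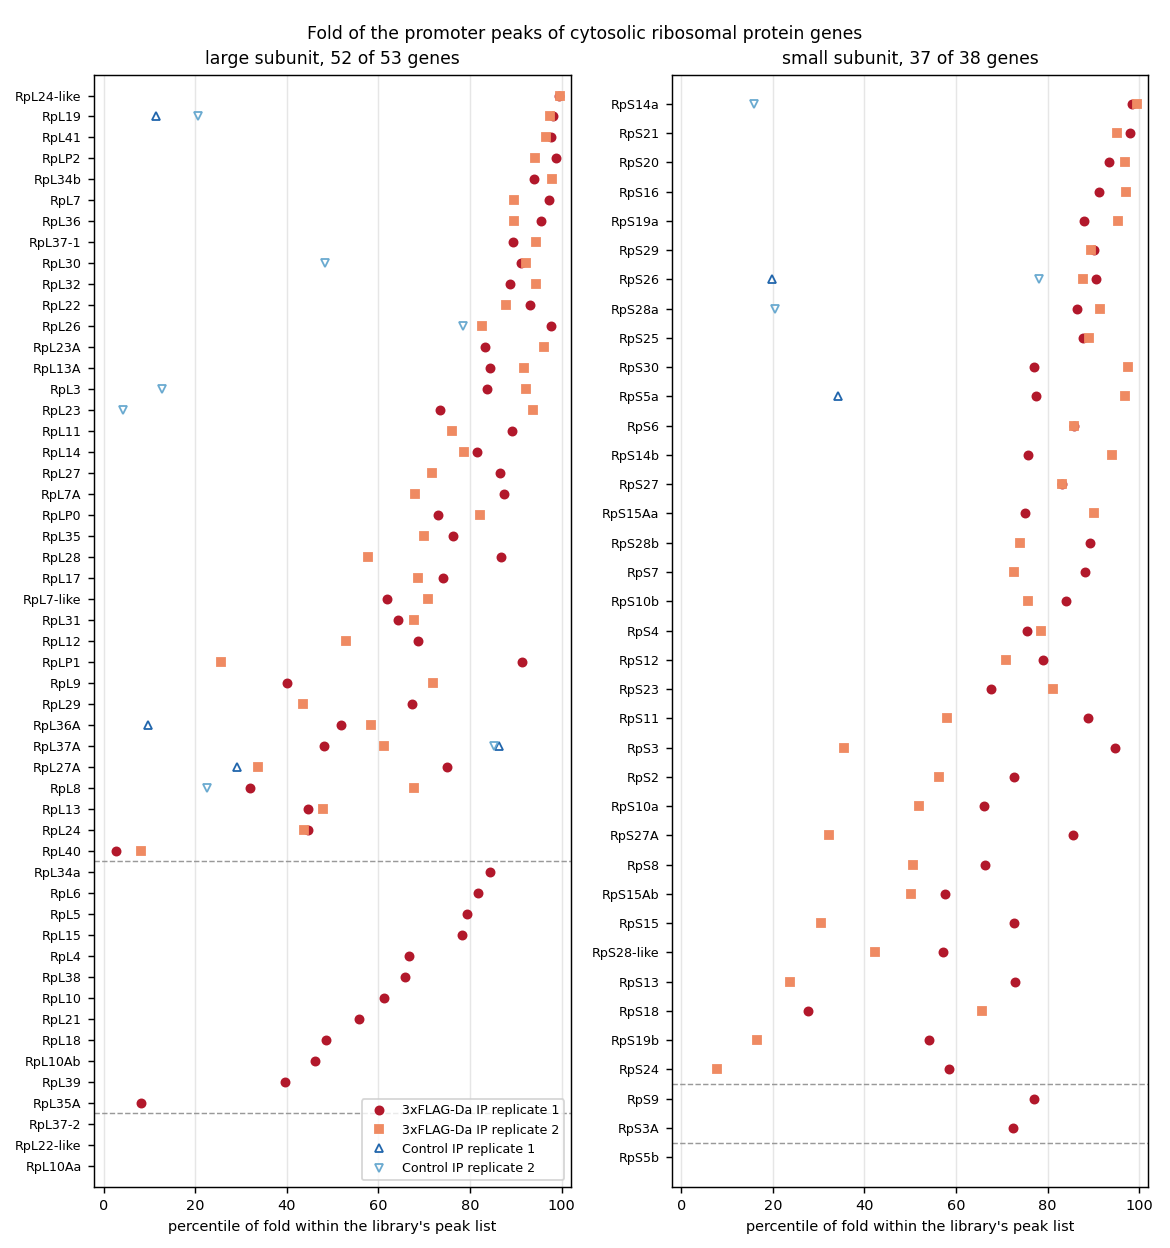
Percentile of fold within the library's own peak list (horizontal axis) for the promoter peaks of members, with a line for 89 of the 91, with the large subunit on the left and the small on the right; filled marks are the tagged libraries and open marks the Control libraries. Dashed lines separate the members in both tagged lists from the 14 in replicate 1 alone and the 4 in neither, and RpL24-like and RpS14a lie at the top while RpL40 is lowest of those in both by mean percentile.

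Shares of the subunits were close in the deeper tagged library and further apart in the shallower. In 3xFLAG-Da IP replicate 1, 50 of 53 large subunit genes (94.3%, 84.6 to 98.1%) and 37 of 38 small subunit genes (97.4%, 86.5 to 99.5%) had a promoter peak. In replicate 2 they were 38 of 53 (71.7%, 58.4 to 82.0%) and 35 of 38 (92.1%, 79.2 to 97.3%), and the same genes were in both lists. The large subunit share was thus 3.03 percentage points below the small in replicate 1 and 20.4 points below in replicate 2, and the intervals overlapped in both libraries. With summits limited to 500 bp the difference in both lists shrank to 6.50 points. Median folds of bound members were 6.04 and 6.03 for the large and the small subunit in replicate 1, and 7.22 and 6.96 in replicate 2. In the Control lists, 4 and 7 large and 3 and 4 small subunit genes had a promoter peak.

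The 14 members called in 3xFLAG-Da IP replicate 1 alone were 12 of the large subunit (RpL10, RpL10Ab, RpL15, RpL18, RpL21, RpL34a, RpL35A, RpL38, RpL39, RpL4, RpL5 and RpL6) and 2 of the small (RpS3A and RpS9). None had a Control peak, and no member was called in replicate 2 alone. Their folds in replicate 1 ran from 2.41 at RpL35A to 6.76 at RpL34a, with a median percentile of 66.2 against 83.4 for the 73 members in both lists. RpL5, which carries the 5S ribosomal RNA into the ribosome, had a fold of 6.12, and RpL10, which joins the large subunit near the end of its assembly, had 4.57. RpS9, which helps the small subunit to read codons accurately, had 5.83, and RpS3A had 5.38. RpL6 had the largest pileup among these 14, at 124 fragments. Scaled to the coverage of replicate 2 at genome background, the pileup gave a probability of a call of 0.95 or more for all 14, and with the local background for 13 of 14, where RpL35A had 0.741. No peak of replicate 2 overlapped the replicate 1 peak at any of the 14. The lists differed over all genes too: 7763 of 13986 protein-coding genes were called in replicate 1 and 5994 in both lists. For the members these counts were 87 and 73 of 91. What separates the libraries at the 14 members was not tested.

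The 4 members in neither tagged list were RpL10Aa, RpL22-like, RpL37-2 and RpS5b. Each has a paralogue among the members. RpL22-like is known for expression in the testis and RpS5b for expression in the ovary. Their partners each had a peak in at least 1 tagged list. RpL22 had folds of 8.62 and 9.25 in the tagged lists, RpL37-1 had 7.66 and 12.2, and RpS5a had 5.88 and 14.5. RpL10Ab had 3.72 in replicate 1 and no peak in replicate 2.

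There were 12 paralogue groups with 25 members. All members were in both tagged lists in 7 groups, and 4 groups had an unbound member. Of the 25 genes, 19 were in both tagged lists, 2 in replicate 1 alone and 4 in neither, while of the 66 genes outside these groups 54 were in both, 12 in replicate 1 alone and 0 in neither. Paralogues with peaks differed in strength. RpL24-like (14.0 and 23.9) stood above RpL24 (3.66 and 4.39), and RpL7 (10.6 and 9.70) above RpL7-like (4.61 and 6.39), which is related to a yeast assembly factor of the large subunit. RpL34b (8.91 and 15.8) stood above RpL34a, with a fold of 6.76 in replicate 1 alone. In the pairs with peaks in both tagged libraries, the order was the same in both.

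The small subunit groups showed the same spread. RpS14a (11.5 and 20.9) and RpS14b (5.69 and 12.0) lie beside each other on X. The RpS14b peak has its summit 835 and 823 bp downstream of a second annotated start inside the gene, which puts it 215 and 203 bp past the end of RpS14b and nearer to the start of Ubr3. RpS19a had folds of 7.30 and 12.8 against 4.10 and 3.33 at RpS19b, a copy known from the germline, and both had summits at least 441 bp upstream and nearer to another gene's start. RpS15Aa had 5.63 and 9.86 against 4.31 and 4.76 at RpS15Ab, whose summits were nearer to another gene's start in both tagged lists. RpS10b had 6.70 and 6.96 against 4.90 and 4.84 at RpS10a, whose summits lay 815 and 886 bp upstream. RpS28a had 7.06 and 10.4, RpS28b 7.60 and 6.76, and RpS28-like 4.27 and 4.31. RpS28-like was the lowest of the group in both tagged libraries, while the order of RpS28a and RpS28b turned between them. The summits lay 547 and 594 bp downstream at RpS28-like and 749 and 821 bp upstream at RpS28b. All of these were nearer to another gene's start, so this order cannot be assigned to the RpS28 copies. Reads that match near-identical copies equally well have a low mapping quality, which the authors filtered on, and the part of that filter in the values of paralogues was not tested.

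The 14 members with a Control peak carried 18 such peaks. RpL19, RpL37A and RpS26 were among those in both Control lists. RpL27A, RpL36A and RpS5a were in replicate 1 alone, and RpL23, RpL26, RpL3, RpL30, RpL8, RpS14a and RpS28a in replicate 2 alone. All 18 peaks overlapped a peak of both tagged lists. Pileup over background was higher in 3xFLAG-Da IP replicate 1 than in the Control at 9 of the 18 and higher in replicate 2 at 13. These comparisons, and those below, were not made for all 762 protein-coding genes with a Control promoter peak. They describe the members and do not set them apart from other genes. The 14 members had median percentiles of 82.4 and 89.6 in the tagged lists, and the 59 without a Control peak 83.4 and 74.1. Leaving out Control IP replicate 1 left 11 members with a Control peak, and leaving out replicate 2 left 7.

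RpL37A, a zinc-binding protein of the large subunit, was the member with the strongest Control peak. Its Control folds were 12.9 and 9.46 (percentiles 86.3 and 85.2), against 3.80 and 5.51 in the tagged lists. Pileup over background was 17.0 and 12.3 in the Control libraries and 4.03 and 6.44 in the tagged libraries, so the groups did not overlap and the Control libraries were higher. The Control peaks cover chr2L:5070749-5071092 and chr2L:5070798-5071093, across the start of the gene. Among members, RpL37A alone had both Control libraries above both tagged libraries.

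Of the other 13 members with a Control peak, 6 had both tagged values above every Control value on the scale of pileup over background. RpL19 had Control folds of 4.27 and 4.48 against 11.4 and 15.4 in the tagged lists. RpS26, which contacts mRNA where it leaves the small subunit, had Control folds of 4.67 and 7.89 against 7.90 and 9.20. At RpL19 the groups stood clearly apart, while at RpS26 the folds nearly touched and the groups overlapped on the scale of pileup over background.

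For the 10 members in 1 Control list, the Control fold stood below both tagged folds at 7. The added 1 lowers fold more where pileups are small, as in the Control libraries, and on pileup over background 5 of the 10 stood below both tagged values, 4 between them and 1, RpL27A, above both. The Control summit at RpL27A lay 318 and 136 bp from the tagged summits, which were 409 and 2 bp upstream of a start, so its values come from different positions. RpS14a had a Control fold of 4.29 and RpS5a of 5.19, both far below their values in 3xFLAG-Da IP replicate 2. RpL3, next to the site where amino acids are joined, had a Control fold of 4.11 against 6.66 and 10.9, RpL23 had 3.67 against 5.49 and 11.7, and RpL30 had 5.43 against 8.04 and 10.8. RpS28a had 4.48, and RpL26, at the exit tunnel, had 7.91 against 10.9 and 8.09. The Control fold at RpL26 was close to that of replicate 2, and on pileup over background RpL26 and RpS5a lay between their tagged values. The values of RpL36A were 4.19 against 3.99 and 5.28, those of RpL8 were 4.55 against 3.17 and 6.08, and those of RpL27A were 5.04 against 5.62 and 3.95. In these last 3 the Control fold lay between the tagged folds. The RpL8 Control peak lies further upstream and does not overlap the tagged promoter peaks compared here, so the values come from different sites.

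**Figure D3:**
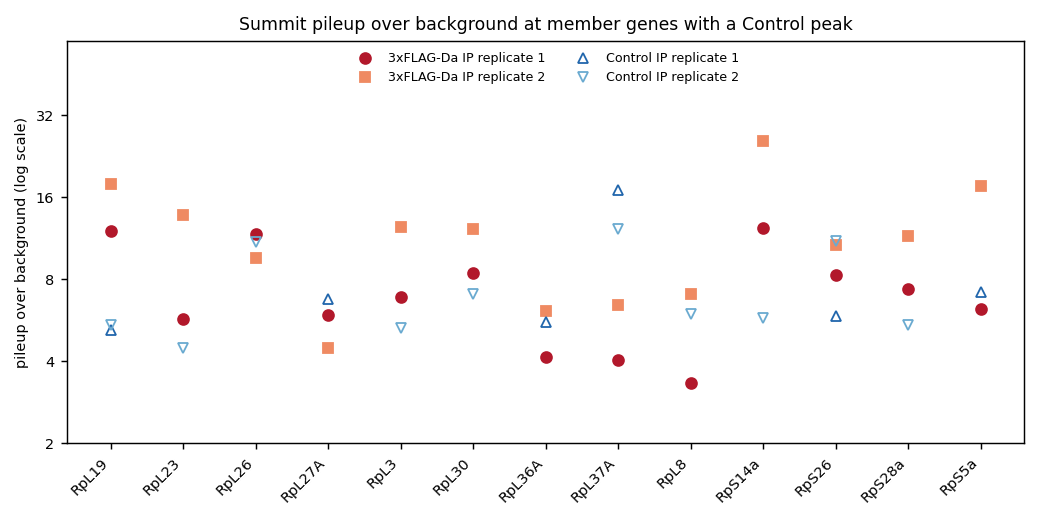
Pileup at the summit over local background (log scale, vertical axis) for the promoter peaks of 13 of the 14 members with a Control peak, with filled marks for the tagged and open marks for the Control libraries. RpL37A has 17.0 and 12.3 in the Control libraries against 4.03 and 6.44 in the tagged, RpL8 is drawn with its Control peak at another site than its tagged peaks, and RpS14a reaches 25.6 in 3xFLAG-Da IP replicate 2.

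The absence of a Control peak at the other 59 members was read against depth. Scaled from 3xFLAG-Da IP replicate 1 to the coverage of the deeper Control library, 46 of 59 would be called there with a probability of 0.95 or more if the Control enrichment were as high, and 46 would when scaled from replicate 2. With the local background of each peak, 36 of 59 would. The probability was under 0.5 for 1, 0 and 4 members in these readings. For those members a Control peak as strong as the tagged one would more often than not be missed at this depth.

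Summits lay mostly just upstream of the members' starts. In the tagged lists the median positions were -106 and -72 bp, where a negative value is upstream, against -95 and -63 bp for all bound genes. Upstream summits made up 88.5% and 76.7% of the member peaks, against 74.2% and 67.0% for all bound genes. The summits of the 2 tagged lists lay a median of 35 bp apart at the 73 members (44 bp at 5994 genes). At 60 of 73 members (82.2%) they lay within 100 bp, against 72.4% of the 5994 genes. Summits lay over 500 bp away in both lists at RpS10a, RpS14b, RpS15, RpS19a, RpS28-like and RpS28b. Widening the limit from 1000 to 2000 bp added RpL10Ab, RpL5 and RpS3A to the members in both tagged lists, and narrowing it to 500 bp removed 7, which left 66.

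**Figure D4:**
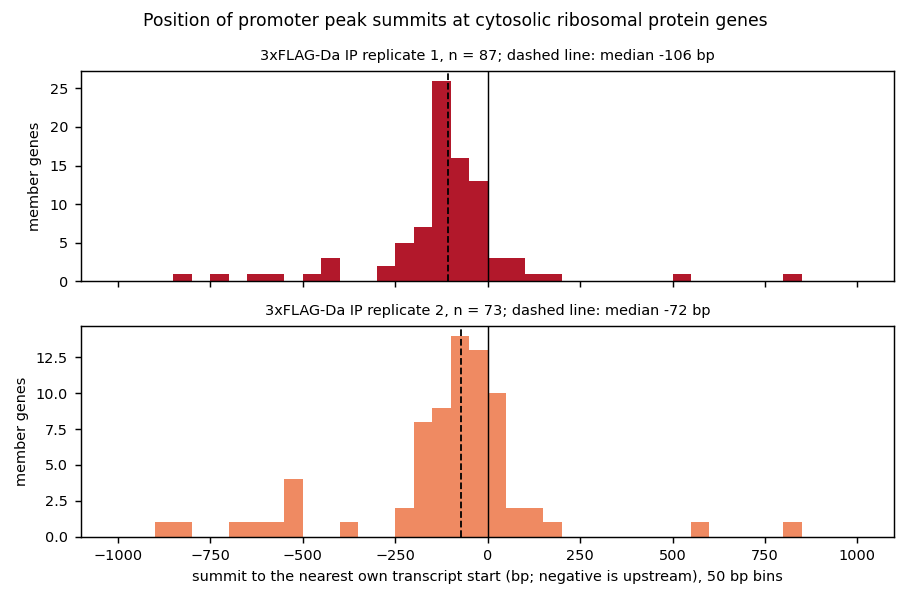
Number of members (vertical axis) by the distance of the promoter peak summit from the nearest own transcript start, in bins of 50 bp, negative upstream, for the 87 and 73 members of the tagged lists. Dashed lines mark the medians of -106 and -72 bp, and most summits lie in the 250 bp upstream of the start.

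Many members have the start of another gene nearby. Such a start, on either side and of noncoding genes too, lay within 1000 bp at 70 of the 91 members (76.9%), against 48.2% of all genes, and 60 of the 70 (85.7%) were in both tagged lists, against 58.9% of all genes with such a neighbour. Of the 21 members without one, 13 (61.9%) were in both lists, against 27.9% of all such genes. The summit was nearer to the other gene's start at 27 of 87 members in 3xFLAG-Da IP replicate 1 and at 23 of 73 in replicate 2. This count was made for the members only. RpL13 starts 84 bp from Dref, the gene of the factor that reads the DRE, and RpS27A starts at the same base as Ip259. At such promoters the peak cannot be assigned to the member rather than to its neighbour.

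By chromosome, members in both tagged lists were 14 of 14 on X (49.2% of all genes there), 17 of 19 on 2L (38.2%), 16 of 20 on 2R (43.3%), 9 of 14 on 3L (41.8%), 17 of 23 on 3R (43.9%) and 0 of 1 on chromosome 4 (21.3%), where RpS3A lies. Among other genes of the translation machinery, 2 lists were examined. The mitochondrial ribosomal protein genes, encoded in the nucleus for the organelle's own ribosome, had 47 of 73 (64.4%, 52.9 to 74.4%) in both tagged lists. The genes of cytosolic initiation and elongation factors had 33 of 51 (64.7%, 51.0 to 76.4%), and both intervals overlap that of the members. In both tagged lists and in neither Control list were 56.2% and 56.9% of these lists, beside 64.8% of the members.

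Ribosomal proteins that the symbol rule does not reach were also bound. The gene sta, which encodes the small subunit protein SA, had folds of 5.33 and 8.57. Rack1, a scaffold on the small subunit head, had 3.48 and 3.87, and RpLP0-like, a relative of RpLP0, had 6.11 and 8.37 with a fold of 4.57 in Control IP replicate 2. All of these were in both tagged lists.

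CAGCTG was less frequent at the summits of the members than at those of all bound genes. For each of the 73 members in both tagged lists, words were sought on both strands within 50 bp of the summit of the list where the peak ranked higher, and in windows 250 bp to each side. CAGCTG was present at 2 members, RpL7-like and RpS16 (2.74%, 0.755 to 9.45%), against 12.4% of all 5994 bound genes (11.6 to 13.3%). In the windows to the side it was present in 3.42% for members and 4.65% for all bound genes. Any of 3 E-boxes, namely CAGCTG itself, the form CAGGTG with a GG centre and the form CAGATG with a GA centre, was present at 6 members (8.22%, 3.82 to 16.8%) and in 8.22% of their windows to the side. For all bound genes the shares were 21.6% at the summit and 11.6% to the side. The interval of the members lies below the share of all bound genes at these summits. At the summits of the other tagged list, 9 members (12.3%, 6.62 to 21.8%) held one of these words. The share of all bound genes was not counted at those other summits, so whether the members lie below it there is not known. CAGGTG by itself was present at 5.48% of member summits and 2.05% of their windows to the side, against 5.76% and 4.18% for all bound genes.

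The 6 members were RpL23, RpL41, RpS16, RpL7-like, RpS26 and RpS28a, 3 of each subunit. Of these, RpL23, RpS26 and RpS28a also had a Control peak. Their mean percentiles ran from 66.4 at RpL7-like to 97.2 at RpL41, and the 67 members without these words ran from 5.47 to 99.6. CACGTG was present at 4 members, RpL11, RpL24, RpL7 and RpS6 (5.48%, 2.15 to 13.3%), against 1.62% of all bound genes, with 3.42% and 1.33% in the windows to the side. Any E-box was present at 27 members (37.0%, 26.8 to 48.5%) and at 44.1% of all bound genes, with 32.9% and 37.3% to the side. Median GC content of the summit windows was 38.6% for members and 41.6% for all bound genes, and its part in the word counts was not tested.

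The DRE was more frequent at the summits than in the windows to the side, both for members and for all bound genes. TATCGATA was present within 50 bp of the summit at 8 members (11.0%, 5.66 to 20.2%) and in 1.37% of the windows to the side, against 5.71% and 0.567% for all bound genes. This word was added at the summits after the E-box values had been seen. The 8 members included RpL27, RpL41, RpL7-like, RpS13, RpS15Aa, RpS15Ab and RpS29. A Control peak was found at 0 of the 8 and at 14 of the other 65 members, and with so few genes this does not set the 8 apart. In 3xFLAG-Da IP replicate 1 the summit was nearer to another gene's start at 4 of the 8 and at 22 of the other 65. Their median percentiles were 80.8 and 80.5 in the tagged lists, beside 83.4 and 76.0 for the other 65 members. GGTCACAC, the word of M1BP, was present at 3 members (4.11%, 1.41 to 11.4%) and in 2.74% to the side, against 5.39% and 0.509% for all bound genes. The intervals of the members overlap the shares of all bound genes for both words.

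**Figure D5:**
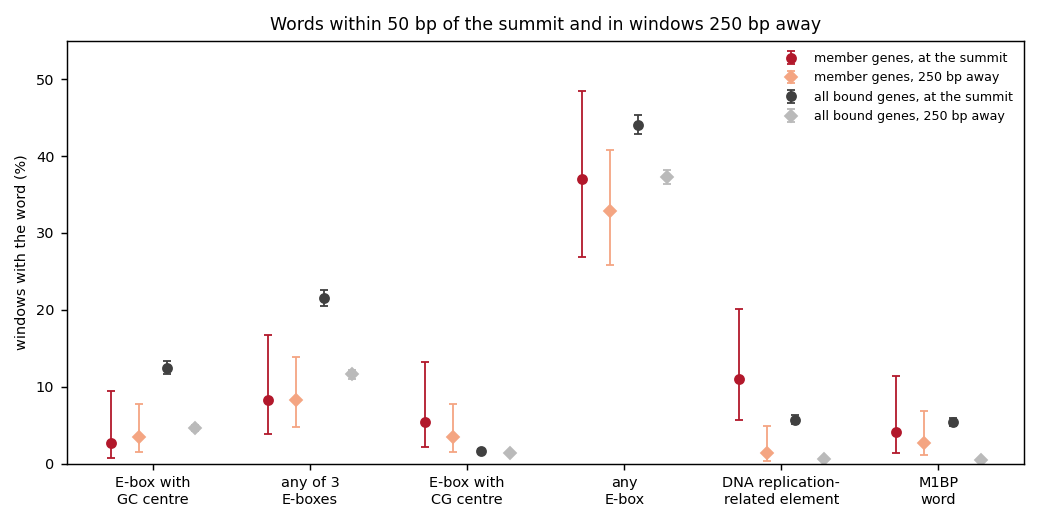
Share of windows with each word (percent, vertical axis, with 95% Wilson intervals) within 50 bp of the summit (circles) and 250 bp to each side (diamonds), for the 73 members and all 5994 genes in both tagged lists. The 3 E-boxes together are at 8.22% at member summits against 21.6% at all bound genes, and the DNA replication-related element is at 11.0% against 5.71%.

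In the promoters of all 91 members, from 250 bases before to 50 after the start of the Ensembl canonical transcript, TATCGATA was present at 28 (30.8%, 22.2 to 40.9%), against 8.94% of all protein-coding genes. GGTCACAC was present at 13 (14.3%) against 7.52%, CACGTG at 10 (11.0%) against 4.25%, TATAAA at 42 (46.2%) against 45.3% and CAGCTG at 9 (9.89%) against 17.9%. Among these words TATCGATA had the widest gap, and for TATAAA the share of all genes lay within the interval of the members (36.3 to 56.3%). TATCGATA was present at 24 of the 73 members in both tagged lists, 4 of the 14 in replicate 1 alone and 0 of the 4 in neither. The same split was not made for all protein-coding genes, so it does not link the word to the peaks.

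The letters TCT with the C exactly at the annotated start were found at 3 members, RpL26, RpL34b and RpL7-like (3.30%, against 1.49% of all genes). With the C within 5 bp of the start, a tolerance added after the exact position had been counted, they were found at 41 (45.1%, 35.2 to 55.3%), against 13.1% of all genes. These starts are shown with TCT in capitals, 14 bases before it and 13 after. RpL26 lies at chr3L:18899089-18899118 (plus), RpL34b at chr3R:9401188-9401217 (minus) and RpL7-like at chr2L:12056333-12056362 (plus).
RpL26: ctaaccgcgacccaTCTgtcaaatttcttt
RpL34b: tttctagtttcgtcTCTttgaggtatgcac
RpL7-like: gctccgcgcccaccTCTatcctttttagtt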

How the data were processed

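Anti-FLAG ChIP-seq peak lists of 2 3xFLAG-Da IP and 2 Control IP libraries of adult heads were used, grouped by sample title. The authors trimmed single-end reads, mapped them with Bowtie2 2.5.1 to BDGP6, filtered on mapping quality and removed duplicates with SAMtools 1.12, and called peaks with MACS2 2.2.7.1 (q-value 0.05), each IP library with the matching input and none pooled. The deposited fold column is the authors' ratio of summit pileup to local background, with 1 added to both. The deposited −log10 p and −log10 q columns give the authors' significance values.

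Whole pileups and backgrounds were recovered from fold and −log10 p under the Poisson model and matched within 0.002 for 100% of peaks. The lowest background of a list was read as the coverage of the library, which also scales with fragment length. Read totals are not given in the sources used here. The gene models were Ensembl release 115 (BDGP6.54) and the sequence was RefSeq Release 6, which share the coordinates of the lists. Where a gene had several promoter peaks, the one with the highest fold stood for it. Promoters of fewer genes (13967) than all 13986 could be read, since the rest lie off the chromosome arms. Neighbours included noncoding genes.

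Members and lists were chosen with earlier results of these data known, so shares are descriptions with Wilson intervals, set beside all protein-coding genes, and no test was run over genes. Named were the 10 strongest members and 5 weakest in both tagged lists, members with a Control peak, members missing from a tagged list, paralogues, members with CAGCTG, and RpLP0, RpLP1, RpLP2, RpS6, RpS27A and RpL40. Values of a few members are not reported here, though all members entered the counts. The scripts, run with Python 3.11.15, numpy 2.4.6, pandas 2.3.3 and scipy 1.17.1, were tested on simulated data and recovered 3000 of 3000 pileups and 200 of 200 planted summits.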

Additional observations from a re-analysis of the deposited data

How the results depend on the processing

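The higher share of members with a promoter peak in the tagged libraries kept its direction in every alternative tried, and ranged from 59.3 to 79.7 percentage points apart from leaving out libraries. Leaving out each IP library in turn gave differences of 70.3 to 85.7 points. Members in every tagged list kept were 73 to 87, and 59 to 73 were also in no Control list kept. The large minus small subunit difference was -20.4 to -3.03 points, and 6.90 to 12.3% of bound members held 1 of the 3 E-boxes at the summit. With a tagged library left out, these values rest on the other tagged list alone, so 87 is the count of 3xFLAG-Da IP replicate 1. With the replicate block (paired sign flips) the difference was 78.0 points with an exact p of 0.5, the smallest that 2 pairs allow. The replicate numbers are not stated to mark a shared collection.

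Limiting the members to the 21 with no start of another gene within 1000 bp left 13 in both tagged lists, 12 of them in neither Control list, and a subunit difference of -34.5 points. Thinning the tagged peaks to Control depth, at genome background, left 39 members in both tagged lists and in neither Control list. A limit of 500 bp moved the subunit difference to -6.50 points. The share of summits with 1 of the 3 E-boxes was 4.11% within 25 bp, 19.2% within 100 bp and 12.3% at the summits of the other tagged list. The causes were not tested, apart from the smaller numbers of genes and the wider or narrower windows that these settings make. Of 63 alternative values, 49 stayed within the limits set for them. Some of these could not change, such as the members in both tagged lists when a Control library was left out. For the difference in share between tagged and Control libraries, the limit was its direction only. The readings with local background, leaving out a library for the E-box share, and the alternatives for members with a Control peak were chosen after seeing the data. The last gave 9 members when a peak had to cover the start and 9 at a −log10 q of at least 5.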
